A study of Mus musculus with 24 samples.

Results

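Liver zonation is the division of labour between hepatocytes near the portal vein (periportal) and hepatocytes around the central vein (pericentral). The genes described here are 9 hepatocyte zonation markers that are not cytochromes, taken by name: pericentral Glul, Oat, Rhbg, Slc1a2, Lect2 and Gulo, and periportal Gls2, Cdh1 and Hsd17b13. They are 9 of the 53677 gene rows of the count table, and 9 of 9 passed the filter on low counts that left 14533 genes for testing. RNA was sequenced from liver tissue of 24 mice, 1 library each: 5 mice of the inbred strain 129S1/SvImJ fed chow, 6 of 129S1/SvImJ fed a high-fat diet, 6 of the inbred strain C57BL/6J fed chow and 7 of C57BL/6J fed a high-fat diet. The labels give no transgene and no other treatment. They do not state how old the mice were, their sex, what the diets held or how long they were fed. The design asks how diet acts in each strain, how the strains differ on each diet, and whether the diet effect differs between strains.

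In the liver lobule, blood flows from the portal vein and hepatic artery to the central vein. Periportal hepatocytes break down glutamine and run the urea cycle, and the ring of hepatocytes next to the central vein takes up the remaining ammonium and glutamate and makes glutamine. Wnt signals from the endothelium of the central vein, acting through beta-catenin and its partner transcription factors of the TCF family, set the pericentral programme. Zone is background knowledge here: the labels give liver tissue, with no separation of zones. In such samples, fewer cells of a zone and less RNA per cell cannot be told apart.

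Levels are given as CPM, the count of a gene divided by the effective library size from edgeR and multiplied by 1000000. Total counts were 6707013 to 13124881 per library, and the chow libraries of 129S1/SvImJ were all shallower than those of C57BL/6J. Hepatocyte transcripts were abundant in every liver: 7 marker genes summed to between 53006 and 91681 CPM, and albumin (Alb) alone had group means of 45349 to 66692 CPM. The word called is used for a gene whose adjusted p was under 0.05 in edgeR's quasi-likelihood test, with Benjamini-Hochberg adjustment over all genes tested. Where another method is named, it means an adjusted p under 0.05 by that method. Each fold change below is a difference on the log2 scale. The median of all genes lay between -0.01 and 0.01 in each of the 5 comparisons.

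The markers differed widely in level. Per kilobase of annotated exon, and in C57BL/6J on chow (n = 6), Oat had 355 ± 63 CPM (SD), Glul 293 ± 44, Gulo 215 ± 17 and Hsd17b13 119.6 ± 12.7. Gls2 followed at 90.7 ± 4.6, Lect2 at 72.4 ± 7.2, Slc1a2 at 27.6 ± 5.4 and Cdh1 at 15.2 ± 2.4 on the same scale. Rhbg was the least abundant marker in all 4 groups, with means of 1.02 to 1.55, and rested on 9 to 58 counts per liver. The exons annotated for Slc1a2 sum to 13133 bases, against 919 for Lect2, so a level per kilobase depends on which exons the liver uses. Of the exonic bases of Rhbg, 61.4% are shared with the same-strand gene Gm38392, so the counts of Rhbg are uncertain. Between 1.44% and 3.49% of the exonic bases of Glul, Slc1a2 and Gls2 overlap another gene, and the sources used here do not state whether the counting used strand.

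For several of these markers 3 livers on high-fat diet lay at an end of their group: replicates 6 and 5 of C57BL/6J, and replicate 3 of 129S1/SvImJ. These 3 were singled out after their values were seen, and no cause was tested. The livers said below to stand apart are replicate 6 of C57BL/6J and replicate 3 of 129S1/SvImJ. Other livers also lay at an end of their group for zonation genes. C57BL/6J chow replicate 4 was lowest for 4 of 6 pericentral markers and 10 of 22 other pericentral genes (17.1% of all genes). 129S1/SvImJ chow replicate 4 and high-fat replicate 5 were each lowest for 4 of 6 pericentral markers (20.9% and 16.8% of all genes). 129S1/SvImJ high-fat replicate 6 was highest for 9 of 16 other periportal genes (20.5% of all genes). The first number in the mouse identifiers is shared by several mice of 1 group and by none of another, with 2 such numbers per group. The labels do not say what it stands for. A fit by another method, limma-voom, with this number as a random block is named where that fit changes a call. The correlation within its blocks was -0.0015. The part of the change of method in those calls was not tested.

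**Figure D1:**
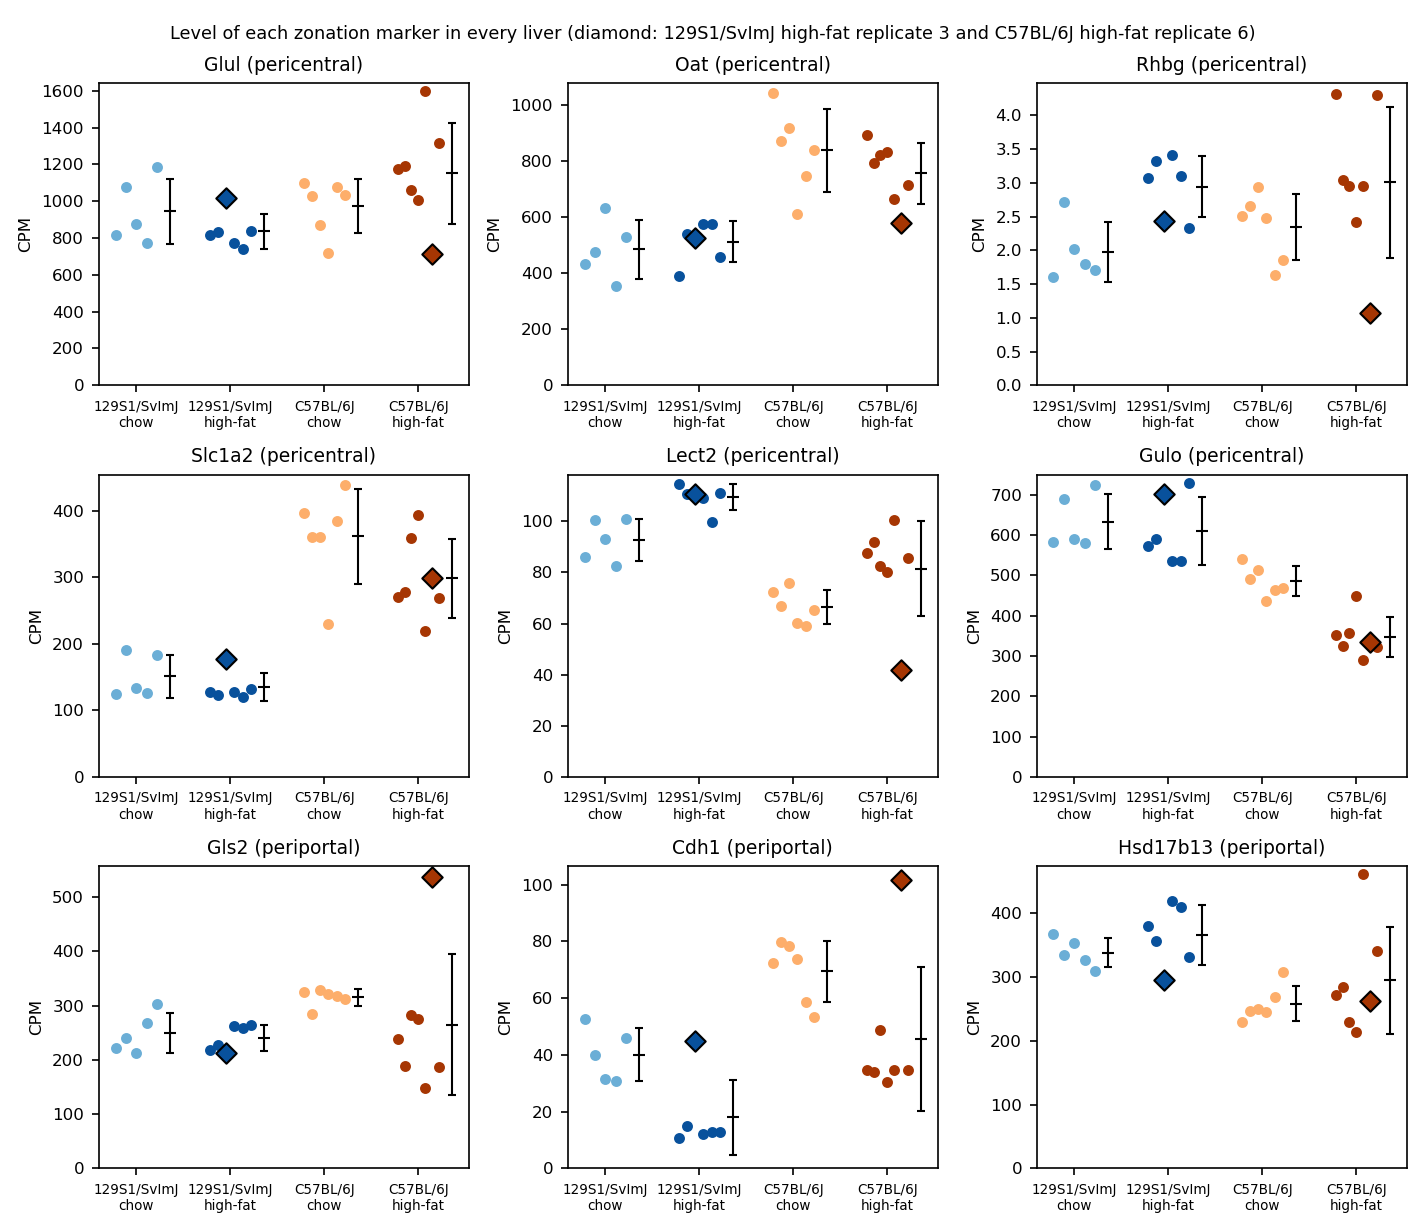
CPM of the 9 markers in all 24 livers, 1 panel per gene, with the mean and SD of each group (black bar) and linear axes from 0. Slc1a2 and Oat sit higher in C57BL/6J and Gulo and Lect2 higher in 129S1/SvImJ. The diamonds show the 129S1/SvImJ replicate 3 with Cdh1 at 45.0 CPM and the C57BL/6J replicate 6 with Gls2 at 538 and Cdh1 at 102 CPM.

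Differences between strains were the most frequent. On chow, 5 of the 9 markers were called between 129S1/SvImJ and C57BL/6J, where 25.0% of all genes tested were called (12.6% higher and 12.5% lower in 129S1/SvImJ). On high-fat diet 6 of 9 were called, against 37.0% of all genes (17.9% higher and 19.1% lower). Slc1a2, Oat, Lect2 and Gulo were called on both diets. Slc1a2 and Oat were lower in 129S1/SvImJ, and Lect2 and Gulo were higher, so these 4 pericentral markers did not differ in 1 direction. The CPM of 5 markers did not overlap between strains on chow and those of 3 did not on high-fat diet, against 15.1% of all genes on each diet.

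Slc1a2 encodes a glutamate transporter of the plasma membrane, which brings glutamate into the cell (ENSMUSG00000005089.15, mm10 chromosome 2, 102658659 to 102790784, plus strand). On chow its levels in 129S1/SvImJ were 125.3, 190.3, 133, 125.4 and 183 CPM, and in C57BL/6J the lowest was 229, the median 373 and the highest 439. Every 129S1/SvImJ liver lay below every C57BL/6J liver. The fold change on chow was -1.26 (SE 0.16, adjusted p = 2.46e-06), a level 2.39-fold lower in 129S1/SvImJ. On high-fat diet the range was 120.4 to 177 CPM with a median of 128 in 129S1/SvImJ, and 220.1 to 394 with a median of 279 in C57BL/6J. The strains again did not overlap, and the fold change was -1.15 (SE 0.15, adjusted p = 1.72e-06). Slc1a2 was the marker with the widest gap between strains on chow.

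Oat encodes ornithine aminotransferase, a mitochondrial enzyme that links ornithine with glutamate (ENSMUSG00000030934.9, chromosome 7, 132557478 to 132576398, minus strand). On chow the levels were 432, 476, 631, 354 and 529 CPM in 129S1/SvImJ, and 611 to 1043 with a median of 855 in C57BL/6J. One 129S1/SvImJ liver, replicate 3, lay above the lowest C57BL/6J liver, and the others lay below all of them. The fold change was -0.79 (SE 0.14, adjusted p = 0.000143). Under the high-fat diet 129S1/SvImJ ran from 390.1 to 577 CPM with a median of 533, and C57BL/6J from 579.8 to 892 with a median of 791. The ranges did not overlap, though the 2 nearest livers were within 4 CPM of each other, and the fold change was -0.56 (SE 0.13, adjusted p = 0.00123).

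Lect2 encodes leukocyte cell-derived chemotaxin 2, a protein that hepatocytes secrete into blood (ENSMUSG00000021539.9, chromosome 13, 56542464 to 56548502, minus strand). On chow its levels were 86.1, 100.5, 93.2, 82.5 and 101.1 CPM in 129S1/SvImJ, and 58.9 to 75.7 with a median of 66.0 in C57BL/6J. Every 129S1/SvImJ liver was higher, with a fold change of 0.48 (SE 0.13, adjusted p = 0.00776). On the high-fat diet the range was 99.7 to 114.7 CPM with a median of 110.7 in 129S1/SvImJ, and in C57BL/6J 42.0 to 100.6 with a median of 85.8. The fold change was 0.42 (SE 0.12, adjusted p = 0.00666), and the groups met at 1 liver of each strain. Without C57BL/6J replicate 6 at 42.0 CPM the fold change was 0.31 (adjusted p = 0.00081).

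The start regions of these genes are shown because Slc1a2, Oat and Lect2 differed between strains on both diets and in opposite directions. Sequences are from RefSeq (GRCm38.p6), which gave 5 of the 9 markers, and run from 250 bases before to 50 after the start, 5′ to 3′ on the strand of the gene. Capitals mark the core CTTTGA of the TCF binding motif, or its reverse complement TCAAAG. Both were searched on the printed strand, which covers both strands of the DNA. No 129S1/SvImJ sequence was used here.
Slc1a2: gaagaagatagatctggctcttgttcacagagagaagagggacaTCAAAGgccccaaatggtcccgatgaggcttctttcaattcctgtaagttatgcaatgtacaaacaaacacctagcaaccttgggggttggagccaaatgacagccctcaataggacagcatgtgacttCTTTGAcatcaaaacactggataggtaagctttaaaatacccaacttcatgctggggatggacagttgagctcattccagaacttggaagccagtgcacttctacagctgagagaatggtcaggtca
Oat: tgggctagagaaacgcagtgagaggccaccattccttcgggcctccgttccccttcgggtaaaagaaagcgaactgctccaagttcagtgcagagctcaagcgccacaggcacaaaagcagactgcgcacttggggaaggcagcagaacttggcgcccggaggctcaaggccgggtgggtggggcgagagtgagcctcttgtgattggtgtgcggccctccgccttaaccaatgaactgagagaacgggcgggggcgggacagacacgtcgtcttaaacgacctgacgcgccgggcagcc
Lect2: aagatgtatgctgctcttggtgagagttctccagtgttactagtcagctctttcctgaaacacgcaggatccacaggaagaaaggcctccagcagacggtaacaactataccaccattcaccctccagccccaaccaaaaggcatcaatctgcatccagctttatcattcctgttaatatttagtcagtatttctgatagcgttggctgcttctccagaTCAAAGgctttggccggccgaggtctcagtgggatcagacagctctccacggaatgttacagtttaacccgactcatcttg
These windows are chr2:102706188-102706487 on the plus strand for Slc1a2, chr7:132576349-132576648 on the minus strand for Oat and chr13:56548489-56548788 on the minus strand for Lect2. Slc1a2 held 2 matches, 206 and 77 bases before the start, Lect2 1 match 31 bases before it and Oat none. Of the other markers in the table, Hsd17b13 held 2 matches, 184 and 18 bases before its start, and Glul none. Of all 32851 windows of this length, 5257 held at least 1 match. The RefSeq start of Slc1a2 lies 47779 bases inside the gene as annotated by GENCODE. A match is a description of letters and was not tested as a binding site.

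Gulo encodes L-gulonolactone oxidase, the last enzyme of vitamin C synthesis in mice (ENSMUSG00000034450.8, chromosome 14, 65986786 to 66009207, minus strand). On chow the levels were 583, 690.5, 589.5, 580.4 and 724 CPM in 129S1/SvImJ, and 436 to 541 with a median of 479.7 in C57BL/6J. Every 129S1/SvImJ liver was higher, with a fold change of 0.38 (SE 0.10, adjusted p = 0.00543). High-fat livers of 129S1/SvImJ ran from 535 to 728 CPM with a median of 582, and C57BL/6J from 291 to 448 with a median of 334. The groups did not overlap, and the fold change of 0.82 (SE 0.09, adjusted p = 1e-07) was the only strain difference above 0.5 among the markers higher in 129S1/SvImJ. Among 7 genes of vitamin C synthesis and transport, Gulo included, 2 were higher and 0 lower in 129S1/SvImJ on each diet. The other gene was the ascorbate transporter Slc23a1 (0.47 on chow, adjusted p = 0.00574; 0.33 on high-fat diet, adjusted p = 0.0198), and its call on high-fat diet was lost without 129S1/SvImJ replicate 6 (adjusted p = 0.0704).

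Glul encodes glutamine synthetase, which joins ammonium to glutamate and marks the cells next to the central vein (ENSMUSG00000026473.15, chromosome 1, 153899944 to 153909723, plus strand). On chow its levels were 817, 1075, 876, 774 and 1187 CPM in 129S1/SvImJ and 720.4 to 1101 with a median of 1031 in C57BL/6J. These ranges overlapped almost fully, and the fold change was -0.04 (95% confidence interval -0.35 to 0.27, adjusted p = 0.886). On high-fat diet 129S1/SvImJ ran from 741 to 1018 CPM with a median of 825, and C57BL/6J from 715 to 1598 with a median of 1173. Glul was then lower in 129S1/SvImJ, with a fold change of -0.46 (SE 0.14, adjusted p = 0.011), and the overlap came from C57BL/6J replicate 6 at 715 CPM and replicate 4 at 1005 CPM with 129S1/SvImJ replicate 3 at 1018 CPM. Leaving out replicate 6 moved the fold change to -0.55 (adjusted p = 0.000928). Neither diet comparison was called for Glul, and whether the strain difference itself depends on diet was not called (-0.42, with a 95% confidence interval from -0.84 to just under 0, adjusted p = 0.35).

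Rhbg encodes an ammonium transporter of the plasma membrane (ENSMUSG00000104445.1, chromosome 3, 88242874 to 88254709, minus strand). Its levels in 129S1/SvImJ on chow were 1.61, 2.72, 2.02, 1.80 and 1.71 CPM, and in C57BL/6J 1.63 to 2.93 with a median of 2.496. On high-fat diet they ran from 2.34 to 3.41 with a median of 3.08, and from 1.07 to 4.32 with a median of 2.95. The groups of both strains overlapped on both diets, and the strain fold changes were -0.23 (95% confidence interval -0.76 to 0.30, adjusted p = 0.567) on chow and -0.04 (-0.48 to 0.40, adjusted p = 0.903) on high-fat diet. These values rest on 9 to 58 counts per liver.

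Of the 3 periportal markers, Hsd17b13 was called between strains on chow and Cdh1 on high-fat diet. Hsd17b13 encodes a protein of the lipid droplet surface (ENSMUSG00000034528.15, chromosome 5, 103955440 to 103977410, minus strand). On chow its levels were 367, 335, 353, 326 and 309 CPM in 129S1/SvImJ, and 229.8 to 307 with a median of 248 in C57BL/6J. The ranges did not overlap, by 2 CPM at their nearest livers, and the fold change was 0.39 (SE 0.14, adjusted p = 0.0401). This call sat at the threshold: the adjusted p rose to between 0.0559 and 0.0882 when 129S1/SvImJ replicate 1, 2, 3 or 4 or C57BL/6J replicate 1, 2, 3, 4 or 5 on chow was left out. On high-fat diet 129S1/SvImJ ran from 295 to 419 CPM with a median of 369, and C57BL/6J from 214 to 462 with a median of 272, and the difference of 0.31 was not called (adjusted p = 0.0600). It was called when 1 of 3 livers was left out: C57BL/6J replicate 5, which held 462 CPM (0.45, adjusted p = 0.00078), C57BL/6J replicate 7 (0.34, adjusted p = 0.0462) or 129S1/SvImJ replicate 3 (0.36, adjusted p = 0.034). It was also called by limma on the variance-stabilized values (adjusted p = 0.0378). The limma-voom fit with the identifier number as a random block called it too (adjusted p = 0.0336).

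Cdh1 encodes E-cadherin, the cell adhesion protein of epithelia, which in liver is found in periportal hepatocytes and in bile duct cells (ENSMUSG00000000303.12, chromosome 8, 106603351 to 106670246, plus strand). On chow its levels were 52.5, 40.1, 31.4, 30.7 and 45.8 CPM in 129S1/SvImJ, and 53.4 to 79.9 with a median of 73.1 in C57BL/6J. Every 129S1/SvImJ liver was lower, but the fold change of -0.79 (SE 0.35) was not called (adjusted p = 0.107). On high-fat diet 129S1/SvImJ ran from 10.8 to 45.0 CPM with a median of 12.9, and C57BL/6J from 30.6 to 101.7 with a median of 34.7. Cdh1 was called lower there in 129S1/SvImJ by -1.32 (SE 0.33, adjusted p = 0.00365), with 5 of the 6 livers below every C57BL/6J liver. The remaining one was replicate 3 at 45.0 CPM. The fold change was -1.84 without that liver (adjusted p = 2.04e-05) and -0.999 without C57BL/6J replicate 6 (adjusted p = 0.00792). Fitted to the 2 chow groups alone, the chow difference was called with a similar size (-0.79, adjusted p = 0.00179). It was also called without 129S1/SvImJ high-fat replicate 3 (adjusted p = 0.0267) or without C57BL/6J high-fat replicate 6 (adjusted p = 0.0459), although neither is a chow liver, since all groups share 1 estimate of the spread. In the limma-voom fit with the identifier number as a random block, the adjusted p of this chow difference was 0.0435.

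Some cholangiocyte transcripts were also called between strains. Summed over 8 marker genes, they were 27.5 to 65.4 CPM in 129S1/SvImJ on chow and 28.0 to 43.3 on high-fat diet, and 45.6 to 114.6 and 47.8 to 176.3 in C57BL/6J. These sums overlapped between strains on chow and did not on high-fat diet. Of the 6 markers tested, 1 was called on chow, against 25.0% of all genes. This was Sox9, lower in 129S1/SvImJ (-1.58, adjusted p = 0.00102). On high-fat diet 3 were called, against 37.0% of all genes. Sox9, Spp1 and Epcam were lower there in 129S1/SvImJ (-1.69, -1.80 and -2.06). The part of bile duct cells in the strain difference of Cdh1 was not tested. Of 6 genes of E-cadherin junctions, Cdh1 included, the catenin genes Ctnna1 (-0.27) and Ctnnd1 (-0.25) were lower on chow. The call of Ctnnd1 was lost without 129S1/SvImJ replicate 2 (adjusted p = 0.0647). On high-fat diet Ctnna1 (-0.23, adjusted p = 0.00283) and Cdh1 were lower, and the cadherin gene Cdh2 was higher (0.26, adjusted p = 0.0182). The call of Cdh2 was lost without 129S1/SvImJ high-fat replicate 6 (adjusted p = 0.0836). Of all genes, 25.0% were called on chow and 37.0% on high-fat diet.

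Gls2 encodes the liver form of glutaminase, which releases ammonium from glutamine (ENSMUSG00000044005.13, chromosome 10, 128194457 to 128210004, plus strand). On chow its levels were 223, 241, 212, 268 and 304 CPM in 129S1/SvImJ, and 285 to 329 with a median of 319 in C57BL/6J. Only 129S1/SvImJ replicate 5 reached the C57BL/6J range, but the fold change of -0.34 was not called (95% confidence interval -0.78 to 0.11, adjusted p = 0.278). It was called, at the same size, when the 2 chow groups were fitted alone (adjusted p = 0.0097). On high-fat diet 129S1/SvImJ ran from 212 to 264 CPM with a median of 243, and C57BL/6J from 148 to 538 with a median of 238. The fold change was -0.14 (adjusted p = 0.617) and turned to 0.13 without C57BL/6J replicate 6.

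**Figure D2:**
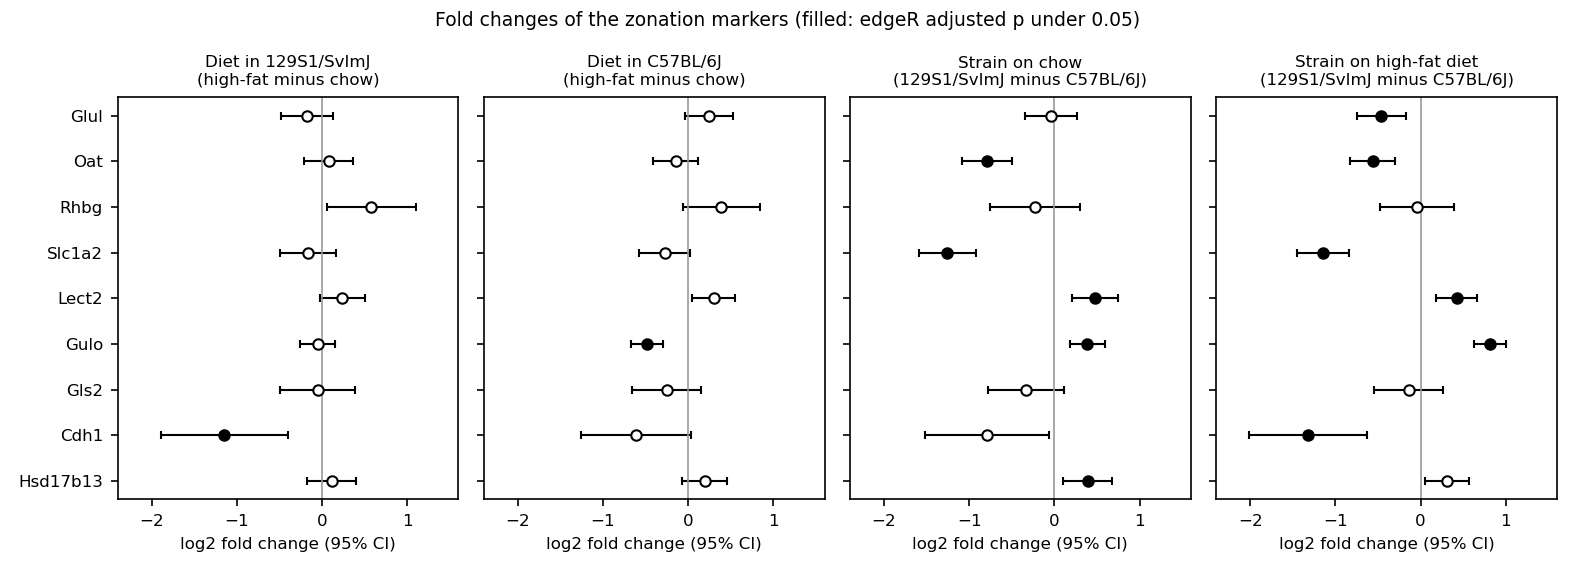
Log2 fold changes of the 9 markers (points) with 95% confidence intervals (bars) in the 4 pairwise comparisons, filled where the edgeR adjusted p is under 0.05. The strain panels hold 5 and 6 filled points and the diet panels 1 each, Cdh1 in 129S1/SvImJ and Gulo in C57BL/6J.

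Other genes of the same zones also differed both ways between strains, where 25.0% of all genes were called on chow and 37.0% on high-fat diet. Of 22 other pericentral genes, 6 were higher and 2 lower in 129S1/SvImJ on chow, and 7 were higher and 3 lower on high-fat diet. Cyp2c29, a drug-metabolizing cytochrome, was higher on both diets (0.79 and 0.95) and its relative Cyp2c37 was lower on both (-1.74 and -1.14). Of 16 other periportal genes, 2 were higher and 1 lower on chow, and 5 were higher and 1 lower on high-fat diet. On high-fat diet these included the urea cycle genes Cps1 (0.85, adjusted p = 0.00142) and Arg1 (0.47, adjusted p = 0.000567), and without C57BL/6J replicate 6 the periportal counts were 9 higher and 1 lower, against 37.2% of all genes called. Among 29 tested genes of glutamine, glutamate and ammonia handling, which include Glul, Oat, Slc1a2, Gls2 and Rhbg, 4 were higher and 4 lower on chow, and 8 higher and 5 lower on high-fat diet. Slc1a1, another glutamate transporter, was higher in 129S1/SvImJ by 5.85 (adjusted p = 4.36e-06) and 4.17 (adjusted p = 1.72e-06), the opposite direction to Slc1a2.

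With all livers in the fit, few of the markers were called for diet. In 129S1/SvImJ 1 of 9 was called, against 10.4% of all genes (5.41% higher and 5.01% lower on high-fat diet). In C57BL/6J 1 of 9 was called, against 14.9% of all genes (7.66% higher and 7.20% lower). These shares lie near those of all genes and are not particular to the markers, and a marker that was not called may still have changed. In neither strain did the CPM of any of the 9 markers separate the diets without overlap, which 7.73% of all genes did in 129S1/SvImJ and 3.89% in C57BL/6J. The diet comparisons of the 2 strains share no liver, but all groups share 1 estimate of the spread. Livers of either strain can therefore change calls in the other.

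Cdh1 fell on high-fat diet in 129S1/SvImJ, with 10.8 to 14.8 CPM in 5 of the 6 high-fat livers against 30.7 to 52.5 in the 5 chow livers. Replicate 3 on high-fat diet held 45.0 CPM, within the chow range. The fold change with all livers was -1.15 (SE 0.36, adjusted p = 0.0451). Without replicate 3 the fold change was -1.66 (adjusted p = 0.000693). The call with all livers sat at the threshold. It was lost in 16 of the 24 fits that each left out 1 liver, with an adjusted p of up to 0.123 and a fold change no weaker than -1.03. It was kept without 129S1/SvImJ chow replicate 4, 129S1/SvImJ high-fat replicate 3, C57BL/6J chow replicate 6 or C57BL/6J high-fat replicate 2, 4, 5, 6 or 7. The summed cholangiocyte markers of replicate 3 were 33.6 CPM, within the 28.0 to 43.3 of its group. For diet, 0 of the 6 cholangiocyte markers tested were called in either strain, against 10.4% and 14.9% of all genes. The part of bile duct cells in these levels of Cdh1 was not tested.

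In C57BL/6J, Cdh1 had 53.4 to 79.9 CPM on chow and, in 6 of 7 livers on high-fat diet, 30.6 to 48.7, all below the chow range. Replicate 6 held 101.7 CPM, above every chow liver. With all livers the fold change was -0.61 (SE 0.31, adjusted p = 0.201), and without replicate 6 it was -0.94 (adjusted p = 0.0192). It was also called in the limma-voom fit with the identifier number as a random block (-0.74, adjusted p = 0.0487). The interaction subtracts the diet effect of C57BL/6J from that of 129S1/SvImJ and was -0.53 for Cdh1 (95% confidence interval -1.52 to 0.46, adjusted p = 0.66). It was -1.05 without 129S1/SvImJ replicate 3 (adjusted p = 0.19) and -0.21 without C57BL/6J replicate 6 (adjusted p = 0.858).

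Gulo fell on high-fat diet in C57BL/6J. Its levels were 436 to 541 CPM on chow with a median of 479.7, and 291 to 448 on high-fat diet with a median of 334, with replicate 4 as the only high-fat liver inside the chow range. The fold change was -0.49 (SE 0.09, adjusted p = 0.000768), a level 1.40-fold lower. General hepatocyte markers were lower in the same comparison: 5 of 7 were called lower, against 7.20% of all genes, with a median of -0.43 over the 7 (Alb -0.43, adjusted p = 0.0037; Fgb -0.58, adjusted p = 0.0023), and their sums were 84841 to 91681 CPM on chow and 59142 to 77917 on high-fat diet. Of these 5, Apoa1 (adjusted p = 0.0475) lost its call in 19 of the 24 fits without 1 liver (adjusted p up to 0.0899). The part of general hepatocyte markers in the change of Gulo was not tested. In 129S1/SvImJ the levels of Gulo overlapped, at 580.4 to 724 CPM on chow and 535 to 728 on high-fat diet, and the fold change was -0.05 (95% confidence interval -0.26 to 0.15, adjusted p = 0.8). The interaction of 0.43 (95% confidence interval 0.15 to 0.71, unadjusted p = 0.00381) was not called over all genes (adjusted p = 0.134). It was called without C57BL/6J high-fat replicate 4 (0.50, adjusted p = 0.0422). Of all genes 0.296% were called for the interaction. Of the 9 markers 0 were called by edgeR or in any of 9 other settings, and Gulo and Glul were the ones with an unadjusted p under 0.05.

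The other markers were not called for diet. Lect2 stood at 82.5 to 101.1 CPM on chow and 99.7 to 114.7 on high-fat diet in 129S1/SvImJ (0.24, adjusted p = 0.266), and at 58.9 to 75.7 and 42.0 to 100.6 in C57BL/6J (0.30, adjusted p = 0.0973). In C57BL/6J 6 of the 7 livers on high-fat diet were above every chow liver, and replicate 6 was below every one. Without that liver, Lect2 was also called in 129S1/SvImJ (0.24, adjusted p = 0.0318), as it was when the 2 groups were fitted alone (0.23, adjusted p = 0.0265). Rhbg had estimates of 0.58 (adjusted p = 0.152) and 0.39 (adjusted p = 0.245). The 95% confidence intervals of Oat, Slc1a2, Gls2 and Hsd17b13 held 0 in both strains and reached at most 0.66 from 0.

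**Figure D3:**
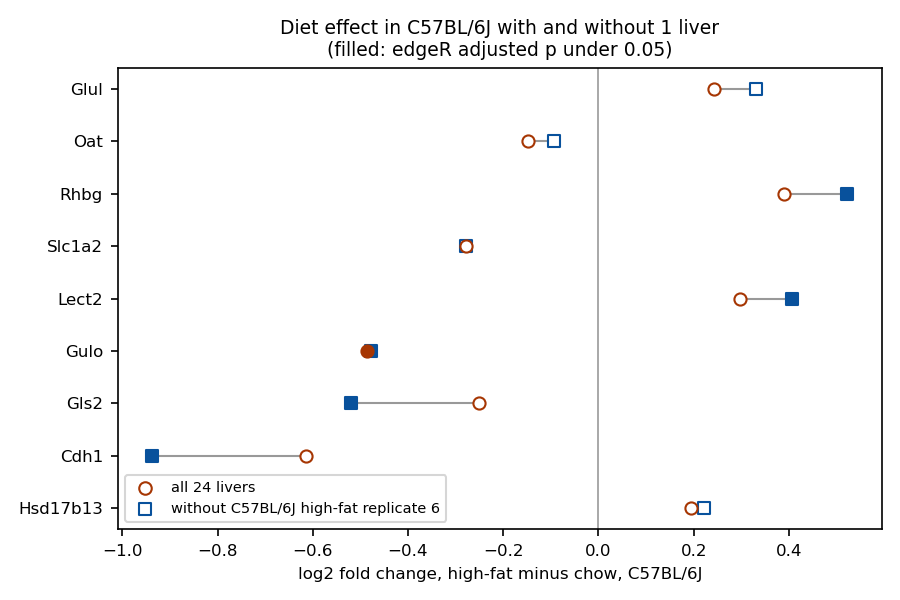
Log2 fold change of each marker for high-fat diet against chow in C57BL/6J, from all 24 livers (circles) and without C57BL/6J high-fat replicate 6 (squares), filled where the edgeR adjusted p is under 0.05. With all livers Gulo alone is filled, and without replicate 6 Rhbg, Lect2, Gulo, Gls2 and Cdh1 are.

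One liver set how many markers were called for diet in C57BL/6J. Without replicate 6 of the high-fat group, 5 of 9 were called. Lect2 (0.41, adjusted p = 0.000199) and Rhbg (0.52, adjusted p = 0.0471), pericentral markers, were higher, and Gls2 (-0.52, adjusted p = 0.0037) and Cdh1 (-0.94, adjusted p = 0.0192), periportal markers, were lower. The pericentral Gulo was lower as before (-0.48, adjusted p = 0.00121). Glul had 0.33 (adjusted p = 0.0607), and was called at 0.34 when 129S1/SvImJ replicate 3 was left out as well (adjusted p = 0.0454). The number of genes called among all tested went from 2159 to 2502, of which 2034 were called in both fits. Since the liver was singled out by values of these same markers, the fit without it is a description and no independent support.

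In replicate 6 itself, 4 of the 6 pericentral markers were below the other 6 livers of its group and 0 above. Glul was at 715 CPM against 1005 to 1598, Oat at 579.8 against 663 to 892, Rhbg at 1.07 against 2.41 to 4.32 and Lect2 at 42.0 against 80.1 to 100.6. Above the others were 2 of the 3 periportal markers: Gls2 at 538 CPM against 148 to 282, and Cdh1 at 101.7 against 30.6 to 48.7. Hsd17b13, Slc1a2 and Gulo lay within the other 6.

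Other zonation genes stood apart in the same liver. Of 16 other periportal genes 10 were above the other 6 livers and 0 below, and of 22 other pericentral genes 8 were below and 1 above, the vasopressin receptor gene Avpr1a. Over all genes tested, 18.8% were above and 19.8% below. The serine dehydratase gene Sds was 2.81-fold, the aldehyde dehydrogenase gene Aldh1b1 2.47-fold and the tyrosine aminotransferase gene Tat 2.41-fold the median of the others. Cps1, which opens the urea cycle, was 1.63-fold that median, and Ass1, a later step, 1.77-fold. On the pericentral side, Slc22a3 was at 0.37 of it, Aldh1a1 at 0.41 and Cyp2c29 at 0.48. The cholangiocyte marker sum of this liver was 57.6 CPM, within the 47.8 to 176.3 of its group, and its hepatocyte marker sum was the highest of its group at 77917 CPM. Their part in these levels was not tested.

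**Figure D4:**
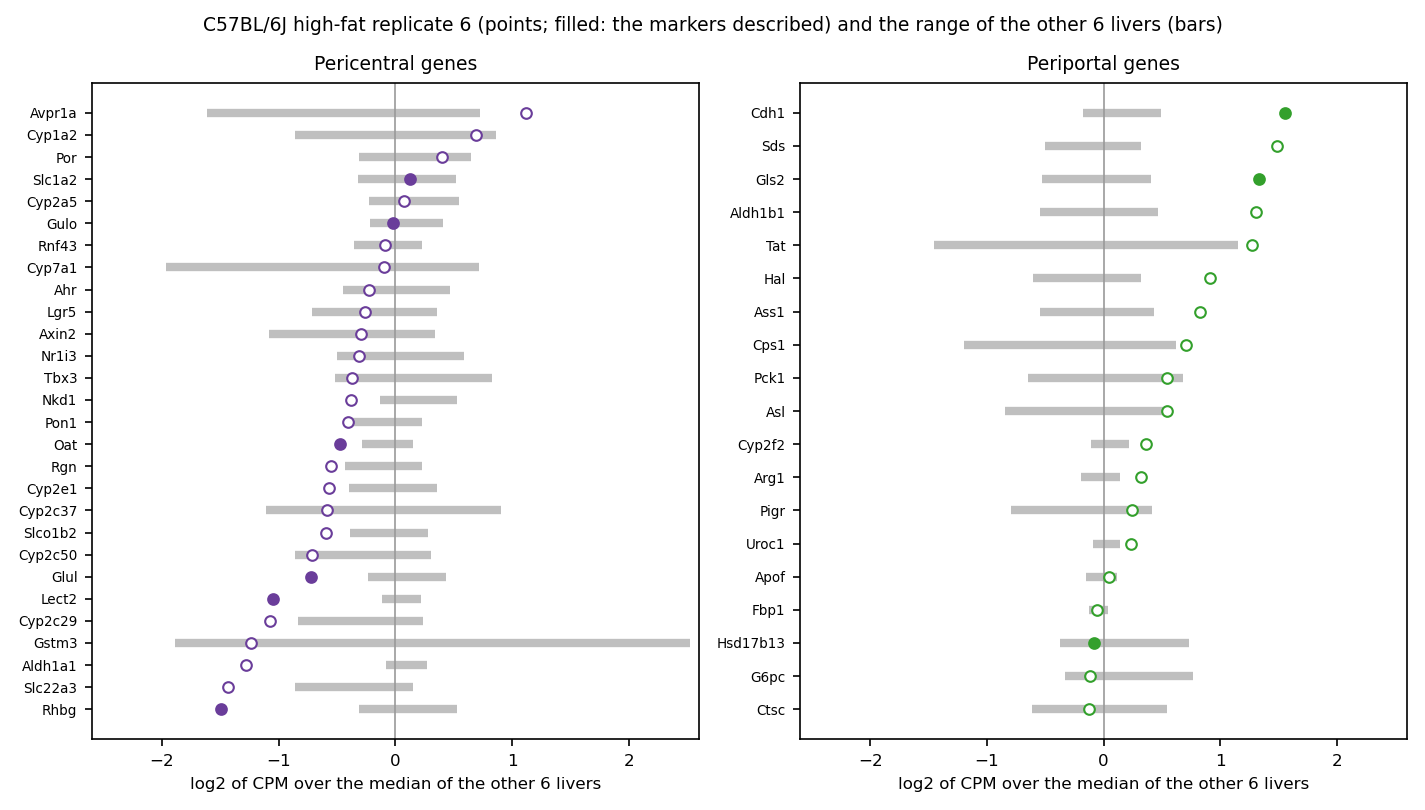
C57BL/6J high-fat replicate 6 (points, filled for the 9 markers) and the range of the other 6 livers of its group (grey bars), as log2 of CPM over their median, for pericentral (left) and periportal genes (right). Points lie right of the bars for 12 periportal genes, Gls2 and Cdh1 included, and left of the bars for 12 pericentral genes.

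The 129S1/SvImJ high-fat replicate 3 stood apart in another way. Its Cdh1 was at 45.0 CPM against 10.8 to 14.8 in the other 5 livers, but its Gls2 (212 CPM) and Hsd17b13 (295 CPM) were the lowest of the group. Its Glul (1018 CPM) and Slc1a2 (177 CPM) were the highest of the group. Of 16 other periportal genes 0 were above the other 5 livers and 7 below, where 19.9% and 22.8% of all genes were. Of 22 other pericentral genes 3 were above and 9 below.

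Replicate 5 of C57BL/6J on high-fat diet stood at the low end of its group for periportal genes. Of 16 other periportal genes 13 were the lowest of the 7 livers and 0 the highest, where 22.1% and 19.4% of all genes were. Its Gls2 (148 CPM) was the lowest of its group and its Glul (1598 CPM), Lect2 (100.6 CPM) and Hsd17b13 (462 CPM) the highest, while its pericentral Slc1a2 (220.1 CPM) and Gulo (291 CPM) were the lowest. Of 22 other pericentral genes 1 was the highest and 5 the lowest. Without this liver the same 1 marker, Gulo, was called for diet in C57BL/6J (-0.44, adjusted p = 0.00203), the fold change of Gls2 was -0.14 (adjusted p = 0.681), and 1768 genes were called, 1629 of them shared with the fit of all livers. Its summed cholangiocyte markers were the highest of its group at 176.3 CPM and its summed hepatocyte markers the lowest at 59142 CPM. Their part in these levels was not tested.

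Glutamine release and glutamine synthesis can be set against each other within a liver. The ratio of Gls2 to Glul, both per kilobase of exon, was 0.257 ± 0.045 (SD, n = 5) in 129S1/SvImJ on chow and 0.280 ± 0.051 (SD, n = 6) on high-fat diet. In C57BL/6J it was 0.318 ± 0.063 (SD, n = 6) on chow and 0.258 ± 0.213 (SD, n = 7) on high-fat diet. The high-fat SD comes from replicate 6 at 0.719, since the second highest liver of that group was at 0.261. The lowest was replicate 5 at 0.0887. The other 6 high-fat livers of C57BL/6J lay below every chow liver of that strain, whose lowest ratio was 0.266, and the medians were 0.194 and 0.286. No test was made of this ratio.

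Other zonation genes were called for diet as well, where 10.4% of all genes were called in 129S1/SvImJ and 14.9% in C57BL/6J. Of 22 other pericentral genes, 1 was higher and 4 lower on high-fat diet in 129S1/SvImJ, and 0 were higher and 4 lower in C57BL/6J. Avpr1a was lower in both strains (-1.35, adjusted p = 0.0078; -1.91, adjusted p = 0.000297). Cyp1a2, a cytochrome, was lower in C57BL/6J (-1.35, adjusted p = 0.000164), and Por, which passes electrons to cytochromes, was higher in 129S1/SvImJ (1.41, adjusted p = 0.00234). Of 16 other periportal genes, Uroc1, an enzyme of histidine breakdown, was higher in both strains (0.26 and 0.30), and Cps1 was lower in C57BL/6J (-0.65, adjusted p = 0.0252). The call of Uroc1 in 129S1/SvImJ was lost without chow replicate 1 or 4 or high-fat replicate 4 (adjusted p up to 0.055), and that of Cps1 without C57BL/6J chow replicate 3 or high-fat replicate 2 or 7 (adjusted p up to 0.0563). Without C57BL/6J replicate 6, 1 other periportal gene was higher and 4 lower, and 2 other pericentral genes were higher and 3 lower, against 17.1% of all genes called.

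Of 18 tested genes of Wnt control, 0 were higher and 5 lower on high-fat diet in 129S1/SvImJ, with a median of -0.32, and 0 were higher and 4 lower in C57BL/6J, with a median of -0.12. Of all genes, 5.01% and 7.20% were called lower. Znrf3, which removes Wnt receptors and is itself a Wnt target, was lower in both strains (-0.43, adjusted p = 0.00401; -0.45, adjusted p = 0.000845). Axin2, a Wnt target, was lower in 129S1/SvImJ (-1.03, adjusted p = 0.0168), a call lost without chow replicate 1 or 2 (adjusted p up to 0.0695). In the same strain the call of the R-spondin receptor gene Lgr5 (-0.73, adjusted p = 0.0198) was lost without chow replicate 1, 2 or 5 (adjusted p up to 0.0699). That of Tcf7 (-0.78, adjusted p = 0.0322) was lost without the same 3 livers or high-fat replicate 1, 2, 4, 5 or 6 (adjusted p up to 0.111). Tcf7l2, the main TCF factor of hepatocytes, was lower in C57BL/6J (-0.29, adjusted p = 0.0169). Glul, which is a target of the same pathway, was not called for diet in either strain.

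Among the 29 genes of glutamine, glutamate and ammonia handling, 3 were higher and 1 lower on high-fat diet in 129S1/SvImJ, and 4 higher and 6 lower in C57BL/6J, against the same 10.4% and 14.9% of all genes. Asns, asparagine synthetase, had the most negative fold change of these in both (-1.58, adjusted p = 0.0403; -1.93, adjusted p = 0.0119), and in 129S1/SvImJ its call was lost in 8 of the 24 fits without 1 liver (adjusted p up to 0.121). Gpt, an alanine aminotransferase, was higher in both (0.38, adjusted p = 0.00704; 0.35, adjusted p = 0.00582). Of 14 lipid droplet genes, Hsd17b13 included, 1 was higher in 129S1/SvImJ and 6 in C57BL/6J, and none was lower, again against 10.4% and 14.9% of all genes. The 6 included Cidec, Cidea and Plin4. Over 6 adipocyte markers, summed levels in C57BL/6J were 3.76 to 12.3 CPM on chow and 50.4 to 267 on high-fat diet (Cfd 5.35, adjusted p = 1.17e-05; Fabp4 1.59, adjusted p = 0.000832). Adipoq, which marks adipocytes, had a median of 0 CPM on high-fat diet there and a highest level of 1.23. The part of adipocytes in these counts was not tested. Hsd17b11, the closest relative of Hsd17b13 in the list, was higher in both strains (0.95, adjusted p = 5.32e-08; 0.68, adjusted p = 3.25e-06), where Hsd17b13 had 0.11 and 0.19 and was not called.

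Some pairs of markers varied together within groups. Over 24 livers with group means removed, 7 of 36 pairs of markers had a Benjamini-Hochberg adjusted permutation p under 0.05 by Pearson's r and 3 by Spearman's rho. The share of such pairs among other genes was not computed, so these counts cannot be read as particular to the markers. Gulo varied with Slc1a2 (r = 0.74, p = 8e-05, adjusted 0.00216; rho = 0.80, p = 4e-05, adjusted 0.00144) and ran against Hsd17b13 (r = -0.75, p = 0.00012, adjusted 0.00216; rho = -0.74, p = 0.0001, adjusted 0.0018). Without the 2 livers farthest from the median of Slc1a2, replicate 4 of C57BL/6J on each diet, the first r was 0.71. Without the 2 farthest for Gulo, C57BL/6J high-fat replicate 4 and 129S1/SvImJ high-fat replicate 6, the second was -0.71. Each r without 2 livers kept the group means of all 24 livers. Glul and Lect2 varied together (r = 0.75, p = 0.00039, adjusted 0.00468; rho = 0.59, p = 0.00393, adjusted 0.0472), with r = 0.50 without the 2 livers farthest for Glul, C57BL/6J high-fat replicates 6 and 5.

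Of the other 4 pairs, 3 weakened without 2 livers, again with the group means of all livers kept. Lect2 and Gls2 had r = -0.80 (p = 0.00924, adjusted 0.0498) and rho = -0.30 (p = 0.178, adjusted 0.373), and r was -0.22 without the C57BL/6J high-fat replicates 6 and 5. Glul and Gls2 went from r = -0.66 (p = 0.00841, adjusted 0.0498; rho = -0.43, p = 0.0658, adjusted 0.296) to -0.21, without the same 2, and Rhbg and Lect2 from 0.76 (p = 0.00969, adjusted 0.0498; rho = 0.49, p = 0.0194, adjusted 0.148) to 0.43 without replicates 6 and 1. Slc1a2 and Hsd17b13 had r = -0.52 (p = 0.0088, adjusted 0.0498; rho = -0.46, p = 0.0241, adjusted 0.148) and r was -0.59 without replicate 4 of C57BL/6J on each diet. The 2 markers of a pair are measured in the same library, with its depth and RNA quality, and the part of these was not tested.

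**Figure D5:**
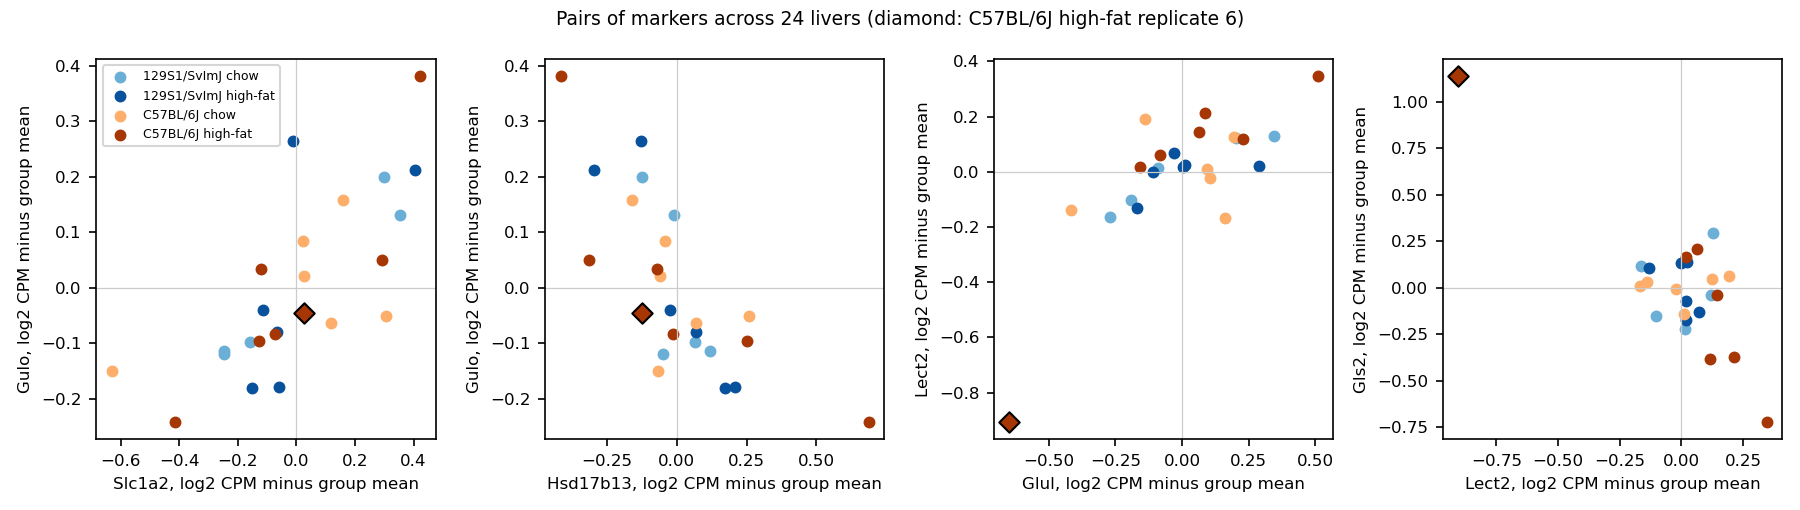
Log2 CPM minus the group mean for 4 pairs of markers in 24 livers, coloured by group, with C57BL/6J high-fat replicate 6 as a diamond. Gulo runs with Slc1a2 (r = 0.74) and against Hsd17b13 (r = -0.75) over all livers. The r of -0.80 between Lect2 and Gls2 is -0.36 without the diamond, with the group means taken again.

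By the same measure, searched over 9671 protein-coding genes and given with no test, the genes most like Gls2 were Slc38a3 (r = 0.91) and Slc38a4 (r = 0.89), both amino acid transporters of hepatocytes. Gulo was most like Slc35e1 (0.88) and Plxnb2 (0.82), Hsd17b13 most like Sptbn1 (0.87) and Mgst3 (0.83), and Lect2 most like Colec12 (0.86) and Pcsk6 (0.84). Cdh1 was most like Farp1 (0.86) and Ints7 (0.79), Slc1a2 like Gna12 and Npr2 (both 0.83), and Glul like Actr1b (0.79) and Hexa (0.76). Rhbg was most like the pericentral Aldh1a1 (0.78) and Tmem168 (0.76), and Oat like Smpd1 (0.76) and Lhpp (0.73). All these r include C57BL/6J high-fat replicate 6, and the search was not repeated without it. In that liver Rhbg was at 0.36 and Aldh1a1 at 0.41 of the median of the other 6 livers.

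The spread between mice differed between markers. The biological coefficient of variation that edgeR estimated was 39.5% for Cdh1, higher than for 95.6% of all genes tested, and 24.5% for Gls2, against a median of 12.97% over all genes. Gulo had the lowest at 12.5%, and the other 6 lay between 15.0% and 20.7%. On high-fat diet single livers widened the spread of Cdh1 and Gls2. In C57BL/6J there the SD was 25.4 CPM for Cdh1 and 129.7 for Gls2, and 6.33 and 53.6 without replicate 6. In the other strain the SD of Cdh1 was 13.2 CPM, and 1.44 without replicate 3. Relative to the mean, the SD of Cdh1 was 15.7% and 23.4% on chow (C57BL/6J first) and 55.7% and 73.4% on high-fat diet. That of Gls2 was 48.9% in C57BL/6J on high-fat diet and 5.0% to 14.9% in the other groups.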

How the data were processed

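RNA was measured in 24 mouse livers. Per the labels' protocols, total RNA was treated with DNase, depleted of ribosomal RNA and made into libraries with a kit that keeps strand. The submitters' processing notes list DESeq2 1.26.0, STAR 2.5.4b, Bowtie2 2.2.3 and Trimmomatic 0.36, and the build mm10. The sources used here do not state the annotation release or the strand setting of the counting. The authors deposited raw gene counts per library and as 1 matrix, with identical values in 24 of 24 libraries, and a matrix of variance-stabilized values on a log2 scale, used for 1 alternative. Of 53677 identifiers, 53582 matched GENCODE M21 without the version suffix.

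Counts were analysed with edgeR 4.0.16 in R 4.3.3. The filterByExpr function kept 14533 genes, TMM factors scaled the libraries, and all 24 entered 1 robust quasi-likelihood fit of the 4 group means, with Benjamini-Hochberg adjustment over all genes in each of 5 comparisons. Unless limma, limma-voom or another alternative is named, every adjusted p of a gene is from this two-sided test. Fold changes of edgeR use a prior count of 0.125. Correlations used log2 of CPM plus 0.5 with group means removed and 100000 permutations over livers. The procedure was tested on simulated data. Groups were taken from the strain and diet labels, and each mouse is 1 library.

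The 9 markers and the gene lists were chosen with earlier results of these data known. Named are all 9 markers, the 2 genes most like each, up to 4 genes with the smallest p of each list, Alb, Tcf7l2 and Axin2. Other genes, such as those named for their extreme levels in 1 liver, were chosen after their values were seen. Alternatives were DESeq2 1.42.0, no filter on low counts, limma 3.58.1 on the variance-stabilized values, and each library left out in turn. The mouse ID number was a random block in a limma-voom fit. The replicate block and the Rn7sk covariate were in edgeR fits. Promoter windows were matched by symbol, and the protein sequences of the markers were not used here. Rhbg had the fewest counts.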

Additional observations from a re-analysis of the deposited data

Results flagged for a closer look

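In 10 of 36 groups of marker levels, the highest or lowest liver lay farther from the others than Dixon's 95% limit, which chance alone exceeds in about 1 in 20 groups. Of these, 6 came from 2 livers described in the report. In C57BL/6J on high-fat diet, replicate 6 was far below the others for Lect2 (42.0 CPM) and far above for Gls2 (538 CPM) and Cdh1 (101.7 CPM). In 129S1/SvImJ on high-fat diet, replicate 3 was far above the others for Glul (1018 CPM), Slc1a2 (177 CPM) and Cdh1 (45.0 CPM). Single flags were Lect2 in 129S1/SvImJ high-fat replicate 5, the lowest at 99.7 CPM, Slc1a2 in C57BL/6J chow replicate 4, the lowest at 229 CPM, Gls2 in C57BL/6J chow replicate 2, the lowest at 285 CPM, and Gulo in C57BL/6J high-fat replicate 4, the highest at 448 CPM.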

How the results depend on the processing

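The 13 marker calls were recomputed under 10 other settings and with each of 24 libraries left out. Under the settings 125 of 130 values kept direction and call, 5 lost the call and 0 changed direction. With a library left out, 287 of 312 did and 25 lost the call, all of them for Cdh1 with diet in 129S1/SvImJ or Hsd17b13 between strains on chow. Cdh1 also lost its call with no filter on low counts (adjusted p = 0.105), with only the 2 groups (0.0922) and without the highest-Adipoq pair, 129S1/SvImJ chow replicate 1 and C57BL/6J high-fat replicate 5, at 0.866 and 1.23 CPM (0.126). Hsd17b13 lost its call with no filter (0.117) and with the Rn7sk level as a covariate (0.0523). The cause was not tested.

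Changes of sign were seen in results that were not called. Glul between strains on chow was 0.0011 with Rn7sk as a covariate and 0.016 without the highest-Adipoq pair, which also gave interactions of -0.021 for Slc1a2 and 0.079 for Hsd17b13. Rhbg between strains on high-fat diet was 0.011 with the variance-stabilized values, 0.084 with the replicate block and 0.025 with mouse ID numbers as a random block. Gls2 in that comparison was 0.16 without both livers that stood apart, and the Lect2 interaction 0.033 with the replicate block. With 1 library left out, the diet effects in 129S1/SvImJ ran from -0.016 to 0.19 for Oat, -0.11 to 0.00012 for Gulo and -0.10 to 0.029 for Gls2. Strain effects ran from -0.13 to 0.025 for Glul on chow, and on high-fat diet from -0.17 to 0.068 for Rhbg and -0.24 to 0.13 for Gls2. The Hsd17b13 interaction ran from -0.15 to 0.046.

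The number of markers called for diet in 129S1/SvImJ was 0 with no filter and 0 without the highest-Adipoq pair. In these fits 1142 and 1075 of all genes were called. With 1 library left out the number was 0 to 2. In C57BL/6J it was 2 in the limma-voom fit with the mouse ID number as a random block (2209 of all genes). It was 6 without both livers that stood apart (2554 of all genes), and 1 to 5 with 1 library left out (1627 to 2502 of all genes). For the interaction, 43 genes were called, against 297 by DESeq2, 17 with the replicate block, 21 with the ID number as a block, 121 with Rn7sk as a covariate, 98 without both livers that stood apart, 2 without the highest-Adipoq pair, and 5 to 170 with 1 library left out. The markers called for it were 0 to 1. Genes called for diet in 129S1/SvImJ ran from 937 to 1671 with 1 library left out. With the replicate block 1, 1, 5, 7 and 0 markers were called in the 5 comparisons, where 1499, 1746, 3558, 5188 and 17 of all genes were. In that fit Hsd17b13 between strains on high-fat diet was gained (0.37, adjusted p = 0.0302). Replicate numbers do not pair the livers: 33 same-number pairs had a median correlation of 0.06, and 5 of 24 livers correlated best with their own number. The fits without both livers that stood apart and without the highest-Adipoq pair were chosen after seeing the data. Rhbg had 9 to 58 counts per liver, the fewest of the markers.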
